A study of Mus musculus with 109 samples.

Results

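Nuclear respiratory factor 1 (Nrf1) and 7 other regulators of mitochondrial biogenesis were followed through mouse retinas injected with the cytokines IL1A and TNF. The 8 genes, Nrf1, Tfam, Ppargc1a, Ppargc1b, Gabpa, Tfb1m, Tfb2m and Esrra, were taken by their Ensembl IDs from the 37315 genes of the count table, and all of them passed the filter on low counts in every comparison. Nrf1 was selected on its measured log2 fold changes after IL1A+TNF, which were opposite in wild-type (WT) and Sarm1-deficient retinas, and the others were added as its partners in the pathway. Its values in comparisons that involve IL1A+TNF are therefore a description, without a test, and counts of called genes there cover the other 7. The study asked how the cytokines bring about the loss of retinal ganglion cells (RGCs), the neurons whose axons form the optic nerve, and whether SARM1, a protein of axon degeneration, is needed. The libraries came from the whole retinas of 64 mice, 109 retinas in all. The mice were 2 to 6 months old by the study's methods, although its text does not give the same upper age throughout, and each eye had received 2 μL into the vitreous. WT mice were C57BL/6J, IL1A was given at 0.1 μg/μL and TNF at 0.05 μg/μL, and the other eye of a mouse usually received PBS.

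In batch 1, WT retinas were taken at day 2 after PBS (n = 31), TNF (n = 8), IL1A (n = 9) or IL1A+TNF (n = 10). They were also taken at day 14 after PBS (n = 7) or TNF (n = 6), and at day 35 after PBS (n = 6) or TNF (n = 9). Batch 2 held day 2 only, with WT retinas after PBS (n = 5) or IL1A+TNF (n = 6) and Sarm1-/- retinas after PBS (n = 6) or IL1A+TNF (n = 6). All Sarm1-/- retinas were thus from batch 2, and they came from mice of a stock line that lacks SARM1 in the whole body, so the cell type in which the loss acts cannot be told apart. Library totals ranged from 30014757 to 79064488 counts (median 39374202), and batch 2 was the deeper batch. Sarm1 itself lay between 76.43 and 135.8 CPM (counts scaled to library totals of equal size, with TMM factors) in the 97 WT retinas and between 26.16 and 53.23 CPM in the 12 Sarm1-/- retinas, without overlap. Markers of rods, cones, bipolar cells, amacrine cells, RGCs and Müller glia were present in every group of day 2.

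Mitochondria hold a small genome of their own, and most of their proteins are encoded in the nucleus. The transcription factors NRF1 and GABP (also called NRF2, with GABPA as its DNA-binding subunit) and the nuclear receptor ERRα, encoded by Esrra, switch on nuclear genes for respiratory subunits and for the factors that act on mitochondrial DNA. The coactivators PGC-1α and PGC-1β (Ppargc1a and Ppargc1b) have no DNA-binding domain and work through these factors. TFAM packages mitochondrial DNA and starts its transcription, TFB2M opens the promoter for the mitochondrial RNA polymerase, and TFB1M methylates mitochondrial ribosomal RNA. Photoreceptors and RGCs have a high demand for mitochondrial ATP. Nrf1 and Gabpa are not Nfe2l1 and Nfe2l2, the stress-response genes whose proteins share the names NRF1 and NRF2.

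A pair of libraries stood apart and entered every result on Sarm1-/- mice after IL1A+TNF. In the IL1A+TNF retinas of Sarm1-/- mice 61924 and 61926 the 8 RGC markers summed to 108 and 88.56 CPM, whereas the next lowest retina of day 2 (Sarm1-/- mouse 61765) had 297 CPM and the PBS retinas of Sarm1-/- mice had 664.7 to 738.6 CPM. The 5 amacrine markers were low in the same retinas (113.9 and 127.4 CPM, against 482.2 to 653.9 CPM in the other 4), and their monocyte markers were the highest of batch 2 (944.8 and 791.9 CPM). The main results on Sarm1-/- mice after IL1A+TNF are given with and without both retinas, an alternative chosen after the data were seen. The IL1A+TNF retina of mouse 61765 stayed in both versions, although it had the lowest summed rod and cone markers of day 2 (19790 and 140.1 CPM). In whole retina, fewer cells of a type and less RNA per cell cannot be told apart.

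Nrf1 (ENSMUSG00000058440) lies on chromosome 6 at 30047988 to 30153458, plus strand (GRCm38, GENCODE M21). RefSeq (GRCm38.p6) gives it a pair of start sites, and the promoter of the upstream site, 250 bases before to 50 after the start, is shown because Nrf1 leads the findings. It was searched on both strands for 5 motifs written in capitals wherever they occur: GCGCATGCG (the NRF1 core), TGCGCA (a shorter NRF1 motif), ACCGGAAG (the ETS site of GABP), AAGGTCA (the ERRα site) and TGACGTCA (the cAMP response element). None was present in either promoter, so the run (chr6:30047738-30048037, plus strand) is in lower case throughout.
Nrf1: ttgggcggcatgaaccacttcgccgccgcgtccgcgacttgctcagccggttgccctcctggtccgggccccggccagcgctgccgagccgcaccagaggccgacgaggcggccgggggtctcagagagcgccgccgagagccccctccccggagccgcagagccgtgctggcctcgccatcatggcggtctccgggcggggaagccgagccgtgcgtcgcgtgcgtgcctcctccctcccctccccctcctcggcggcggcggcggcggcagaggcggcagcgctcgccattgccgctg

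Nrf1 varied little across the series. Over all 109 retinas its lowest and highest levels were 36.26 and 53.05 CPM (median 44.88), a 1.463-fold span that was narrower than that of every other member except Gabpa (1.447-fold). In WT PBS retinas of day 2, batch 1, the level was 44.9 ± 2.67 CPM (SD, n = 31). Among the 12 groups the highest mean was 47.36 ± 1.90 CPM (SD, n = 6) after TNF at day 14 and the lowest was 40.41 ± 2.11 CPM (SD, n = 10) after IL1A+TNF in WT retinas of batch 1. When the groups were put in order of their means, every gap between neighbours was smaller than the smaller SD of that pair. That held for neighbours only, since the highest and lowest means were further apart than either of their SDs. Per kilobase of exon, Nrf1 was the second lowest of the 8 genes in WT PBS retinas of day 2, batch 1 (4.37 ± 0.26 CPM per kb, SD, n = 31). On the same scale Gabpa had 11.9 ± 0.60, Ppargc1a 11.6 ± 0.75, Ppargc1b 8.91 ± 1.15, Tfb2m 7.23 ± 0.44, Tfam 6.14 ± 0.38, Esrra 4.97 ± 0.46 and Tfb1m 1.501 ± 0.17 CPM per kb. The means of Gabpa and Ppargc1a, the leading pair, differed by less than either SD.

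**Figure D1:**
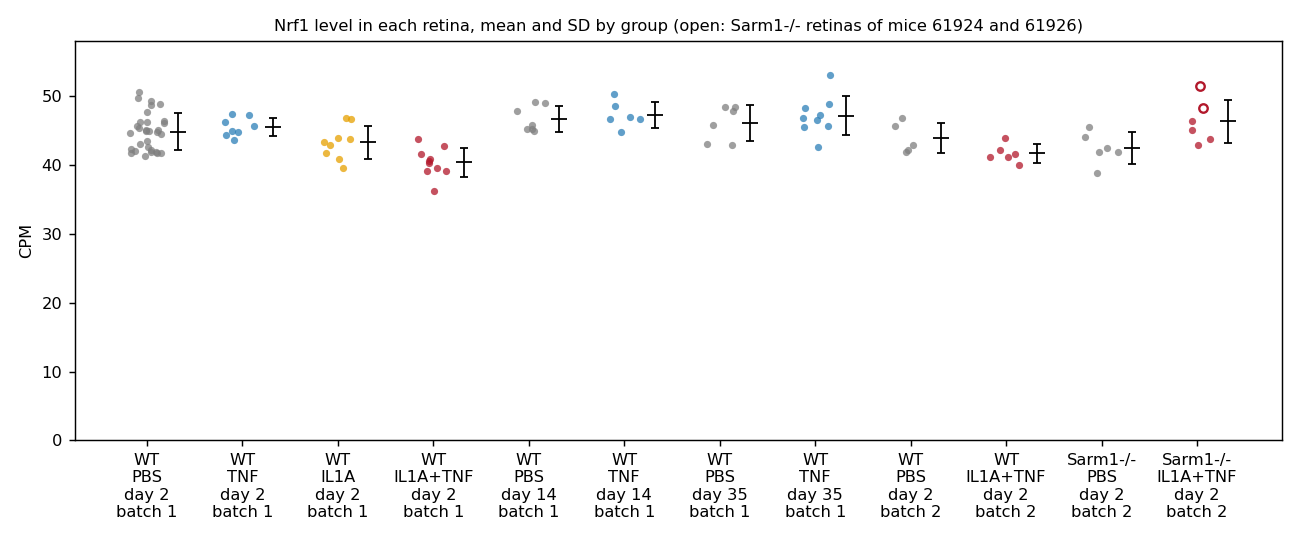
Nrf1 in each of the 109 retinas in CPM, by genotype, treatment, day and batch, with mean and SD beside the points and the retinas of Sarm1-/- mice 61924 and 61926 as open circles. The 6 IL1A+TNF retinas of Sarm1-/- mice lie between 42.91 and 51.57 CPM and the 10 of WT mice in batch 1 between 36.26 and 43.82 CPM.

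In the comparisons that did not choose it, Nrf1 was not called. A gene is called here when limma's false discovery rate (FDR), adjusted over all genes tested, is under 0.05, and fold changes are log2 ± SE. After IL1A alone Nrf1 was 39.62, 43.38 and 46.82 CPM at its lowest, median and highest (n = 9), within the range of the PBS retinas (41.37, 44.92 and 50.62 CPM, n = 31) but for its lowest retinas, with a log2 fold change of -0.05 ± 0.03 (limma FDR = 0.291). After TNF at day 2 it was 43.67, 45.33 and 47.39 CPM (n = 8), wholly inside the PBS range (log2 fold change 0.03 ± 0.03, limma FDR = 0.916). At day 14 the PBS retinas had 45.02, 45.79 and 49.18 CPM (n = 7) and the TNF retinas 44.82, 46.86 and 50.33 CPM (n = 6), with a log2 fold change of 0.01 ± 0.03 (limma FDR = 0.956). The means of both day 14 groups differed by less than the SD of either. At day 35 the PBS retinas had 42.91, 46.88 and 48.5 CPM (n = 6) and the TNF retinas 42.68, 46.8 and 53.05 CPM (n = 9), again with means closer than either SD (0.03 ± 0.04, limma FDR = 0.912). Among PBS retinas Nrf1 had means of 44.9, 46.78 and 46.13 CPM at days 2, 14 and 35, and the days did not pass the test (limma F test, FDR = 0.2). In each of these comparisons the ranges of the groups overlapped widely.

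After IL1A+TNF the level of Nrf1 was lower in WT and higher in Sarm1-/- retinas, the contrast on which it was picked. In batch 1 the lowest, median and highest IL1A+TNF retinas of WT mice had 36.26, 40.46 and 43.82 CPM, and all 10 lay below the PBS mean of 44.9 CPM, although the groups overlapped (log2 fold change -0.15 ± 0.03). In batch 2 the 5 WT PBS retinas had 41.98, 42.15, 43.01, 45.64 and 46.88 CPM and the 6 IL1A+TNF retinas had 39.96, 41.44 and 43.99 CPM at their lowest, median and highest. The shift of WT retinas in batch 2 alone was smaller (-0.08) than over both batches together (-0.12 ± 0.03), and the groups overlapped. Sarm1-/- PBS retinas had 38.85, 42.21 and 45.62 CPM at their lowest, median and highest (n = 6). The 6 Sarm1-/- IL1A+TNF retinas had 42.91, 43.86, 45.16, 46.37, 48.33 and 51.57 CPM, all above the PBS mean of 42.49 CPM, and the highest 2 values were those of mice 61926 and 61924. The fitted log2 difference from PBS was 0.14 ± 0.04 with all retinas and 0.07 ± 0.05 without these 2.

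Between genotypes, Nrf1 in PBS retinas was slightly lower in Sarm1-/- than in WT mice (log2 difference -0.08 ± 0.04, with 2 of 6 Sarm1-/- retinas above the WT mean). In IL1A+TNF retinas it was higher in Sarm1-/- mice (0.19 ± 0.04, and 0.12 ± 0.04 without the 2 retinas). The difference between the genotypes in the response to IL1A+TNF was 0.27 ± 0.05, and it was 0.20 ± 0.05 without the 2 retinas and 0.22 with batch 2 alone. The difference thus kept its direction in these settings, a direction that the choice of Nrf1 fixed.

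Nrf1 was also compared between the eyes of each mouse. In batch 1, the IL1A+TNF eye had less Nrf1 than the PBS eye in 7 of 8 WT mice (median log2 difference -0.14). In batch 2 it had less in 3 of 5 WT mice and more in 2 (median -0.02). In Sarm1-/- mice the IL1A+TNF eye had more in 5 of 6 (median 0.12), and the mouse that went the other way, 61564, differed by -0.01. The smallest and largest differences in Sarm1-/- mice were -0.01 and 0.30, the latter in mouse 61924. The mice of the 3 sets did not separate fully, since 1 WT mouse of batch 1 and 2 of batch 2 went up.

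**Figure D2:**
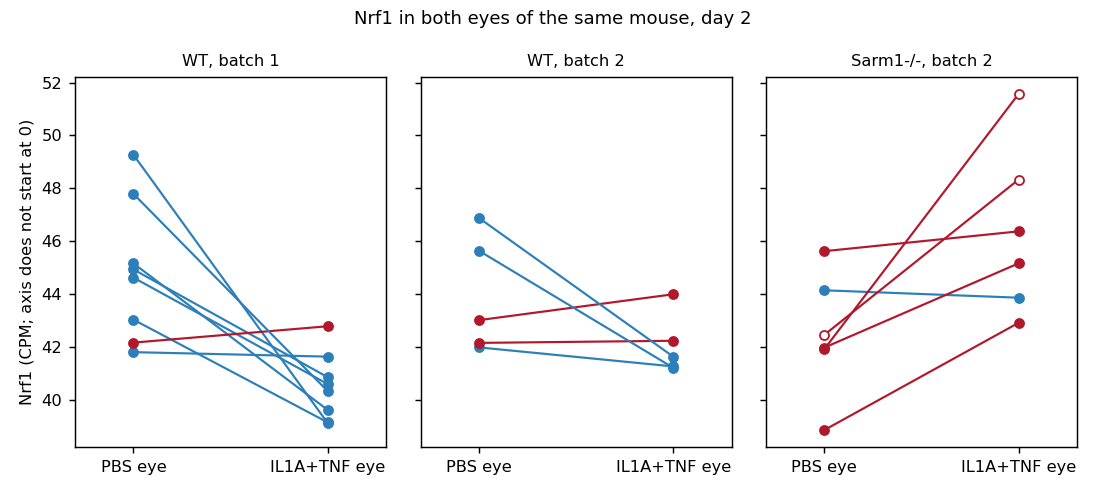
Nrf1 in CPM (axis not starting at 0) in the PBS eye and the IL1A+TNF eye of each mouse with both eyes sequenced at day 2, joined by a line, blue where the IL1A+TNF eye was lower and red where it was higher, with mice 61924 and 61926 as open circles. Lines go down in 7 of 8 WT mice of batch 1 and up in 5 of 6 Sarm1-/- mice.

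RGC markers were set beside Nrf1 in these retinas, and the pair of measures did not move together in every group. Their sum was 519.4 to 671.8 CPM in the WT IL1A+TNF retinas of batch 1, against 581 to 826.7 CPM after PBS, and 349.2 to 600.9 CPM in those of batch 2, against 682.1 to 706 CPM after PBS. In Sarm1-/- mice it was 88.56 to 689.8 CPM after IL1A+TNF, and the 3 retinas lowest in RGC markers had the 3 highest Nrf1 levels of that group. After IL1A alone, 6 of the 8 markers were called, all lower (median log2 fold change -0.20), where 21.4% of all genes were called. Nrf1 was not called there. Between IL1A+TNF and IL1A, 1 of the 8 was called, lower (median -0.06), where 10.1% of all genes were called. Nrf1 differed by -0.10 ± 0.04 in that step. None of the 8 markers was at 0 in any group. Thus the WT IL1A+TNF retinas tended to lower values of both measures, whereas the Sarm1-/- retinas lowest in RGC markers were highest in Nrf1. The part of cell loss in the Nrf1 values was not tested.

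**Figure D3:**
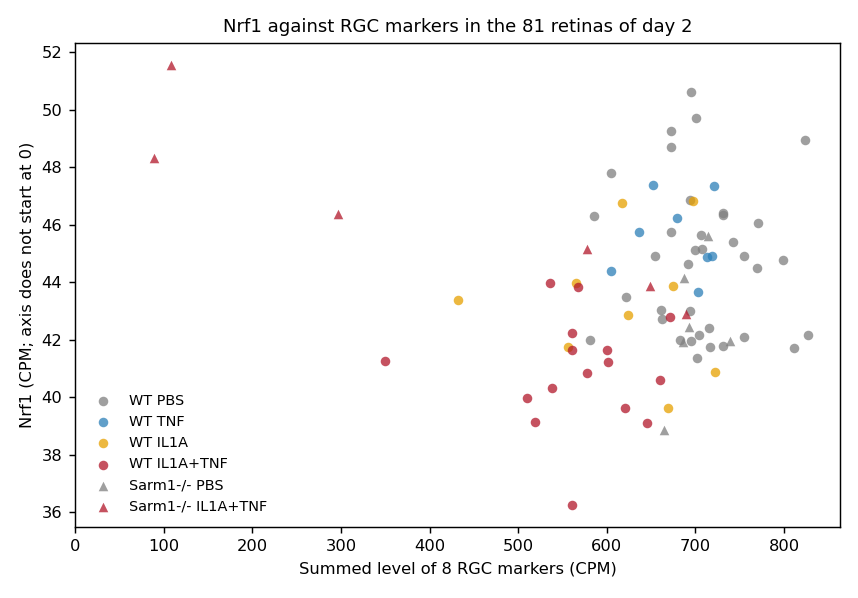
Nrf1 in CPM (axis not starting at 0) against the summed level of 8 RGC markers in CPM in the 81 retinas of day 2, coloured by treatment, with triangles for Sarm1-/- mice. The pair at the far left, at 88.56 and 108 CPM of RGC markers, are the IL1A+TNF retinas of Sarm1-/- mice 61926 and 61924, with Nrf1 at 48.33 and 51.57 CPM.

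Over the 81 retinas of day 2, after each batch was centred on its WT PBS retinas, the genes whose log2 CPM followed Nrf1 most closely of 15157 compared were Crtc3 (Pearson r = 0.707), Dmtf1 (0.696), Wdr27 (0.687), Rad54b (0.68) and Mok (0.675). Crtc3 encodes a coactivator of CREB, Dmtf1 a Myb-like transcription factor, Rad54b a DNA repair helicase and Mok a protein kinase. Without the 2 retinas the same 5 genes had r between 0.636 and 0.686 (n = 79). No other member was among them. Ppargc1b had r = 0.423 (0.624 without the 2 retinas) and Ppargc1a r = 0.275 (0.45), whereas Tfb2m had r = -0.27 (-0.508), Tfam -0.259 (-0.493) and Gabpa -0.113 (-0.368). The points share mice, libraries and treatments, so these values only describe the pattern.

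The coactivators fell. Ppargc1a encodes PGC-1α and Ppargc1b encodes PGC-1β, which many tissues use to match mitochondrial content to energy demand, and Ppargc1a lies on chromosome 5 at 51454250 to 51567726, minus strand. In WT retinas of batch 1 Ppargc1a was 64.61, 76.25 and 88.95 CPM at its lowest, median and highest after PBS (n = 31) and 50.41, 57.26 and 68.5 CPM after IL1A+TNF (n = 10). All 10 lay below the PBS mean of 76.29 ± 4.94 CPM (SD), with little overlap of the groups, and the fall was -0.39 ± 0.04 on the log2 scale (limma FDR = 7.43e-13). Ppargc1b was 26.87, 35.13 and 47.15 CPM after PBS and 15.72, 22.17 and 29.22 CPM after IL1A+TNF, again with all 10 below the PBS mean (log2 fold change -0.66 ± 0.07, limma FDR = 5.04e-12). This was the largest change of any member in that comparison.

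Markers of retinal cell types moved in the same WT retinas of batch 1. After IL1A+TNF all 5 cone markers fell (median log2 fold change -1.25), with a summed level of 145.3 to 735.2 CPM against 646.3 to 1015 CPM after PBS. Of the rod markers 5 of 6 fell (median -0.68), as did all 5 bipolar markers (-0.39) and all 5 amacrine markers (-0.23). Of the 5 Müller glia markers 2 fell and 1 rose (median -0.13), and all 5 neutrophil markers tested rose (median 3.59). After IL1A alone all 5 cone markers (median -0.50) and 5 of 6 rod markers (-0.28) fell as well, with cone sums of 258.6 to 716.9 CPM. No marker of these lists was at 0 in every retina of a group, and the part of these cells in the coactivators' values was not tested.

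Both coactivators were also lower after IL1A alone, by less than after IL1A+TNF. Ppargc1a had a median of 67.3 CPM after IL1A (58.8 to 76.98 CPM, n = 9), and 8 of 9 retinas lay below the PBS mean (log2 fold change -0.18 ± 0.04, limma FDR = 0.000429). Ppargc1b had a median of 27.48 CPM (23.66 to 30.38 CPM), and 9 of 9 were below the PBS mean (-0.39 ± 0.07, limma FDR = 2.05e-05). Between IL1A+TNF and IL1A the step was -0.21 ± 0.05 for Ppargc1a (limma FDR = 0.0032) and -0.27 ± 0.09 for Ppargc1b (limma FDR = 0.0362). With mouse as a fixed replicate block the IL1A fall of Ppargc1a (-0.15, limma FDR = 0.146) and the step from IL1A to IL1A+TNF in Ppargc1a (-0.23, limma FDR = 0.325) and Ppargc1b (-0.18, limma FDR = 0.629) were not called. TNF alone left both coactivators at the PBS level at day 2, with log2 fold changes of 0.01 ± 0.04 for Ppargc1a and -0.03 ± 0.07 for Ppargc1b (limma FDR = 0.98 and 0.961).

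The fall of the coactivators was also measured in batch 2. The 5 WT PBS retinas had 75.35, 76.67, 80.14, 80.64 and 85.85 CPM of Ppargc1a, whereas the 6 WT IL1A+TNF retinas reached from 54.66 to 67.54 CPM (median 59.76), without overlap. For Ppargc1b the 5 PBS retinas had 29.77, 33.32, 37.21, 38.64 and 40.66 CPM and the 6 IL1A+TNF retinas 17.14 to 27.56 CPM (median 22.24), also without overlap. Both were called with batch 2 alone. In all 5 WT mice of batch 2 and all 8 of batch 1 with both eyes sequenced, the IL1A+TNF eye was the lower for both genes.

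The coactivators fell in Sarm1-/- retinas as well. Ppargc1a had 74.53, 82.16 and 85.29 CPM at its lowest, median and highest after PBS and 51.49, 61.1 and 77.64 CPM after IL1A+TNF, with a log2 fold change of -0.38 ± 0.06 (limma FDR = 3.15e-06). Ppargc1b had 21.73, 31.23 and 38.85 CPM after PBS and 15.72, 20.84 and 28.26 CPM after IL1A+TNF (-0.48 ± 0.11, limma FDR = 0.000361). For either gene 5 of 6 mice had less in the IL1A+TNF eye. Without the retinas of mice 61924 and 61926 the falls were -0.30 ± 0.07 (limma FDR = 0.00264) and -0.39 ± 0.13 (limma FDR = 0.0317), so both calls held. With all retinas, 5 of 5 cone markers (median -1.07), 4 of 6 rod (-0.55), 4 of 5 bipolar (-1.11) and 5 of 5 amacrine markers (-1.07) fell. So did 8 of 8 RGC (-1.29) and 4 of 5 Müller glia markers (-0.67), where 43.5% of all genes were called. Without the 2 retinas these counts were 5, 4, 0, 2, 7 and 2, where 12.6% of all genes were called. The part of these cells in the coactivators' values was not tested. The response did not differ detectably between genotypes for Ppargc1a (0.01 ± 0.07, limma FDR = 0.958) or Ppargc1b (0.19 ± 0.13, limma FDR = 0.412). Without the 2 retinas these differences were 0.10 ± 0.08 (limma FDR = 0.629) and 0.29 ± 0.14 (limma FDR = 0.397).

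Both coactivators were higher at the later days in PBS retinas, although the other eye of most of these mice had received a cytokine. Ppargc1b had a mean of 35.6 ± 4.599 CPM at day 2 (SD, n = 31), 48.8 ± 4.41 CPM at day 14 (n = 7) and 49.98 ± 3.66 CPM at day 35 (n = 6), and the days differed (limma F test, FDR = 1.21e-09). Ppargc1a rose from 76.3 ± 4.94 to 81.7 ± 2.20 and 90.2 ± 4.04 CPM (limma F test, FDR = 2.86e-06). TNF retinas of days 14 and 35 lay close by, with 48.9 and 50.6 CPM for Ppargc1b and 83.0 and 88.0 CPM for Ppargc1a. The other eyes, where sequenced, had TNF, IL1A or IL1A+TNF at day 2, TNF or PBS at day 14 and TNF at day 35. Age of the mouse, time since injection and the treatment of the other eye cannot be told apart here. Of the 8 genes, 3 were called across days, against 36.2% of all genes tested, and the third was Gabpa (62.8 ± 3.26 CPM at day 14, 67.7 ± 3.43 at day 2 and 69.6 ± 7.83 at day 35, limma F test, FDR = 0.0395).

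**Figure D4:**
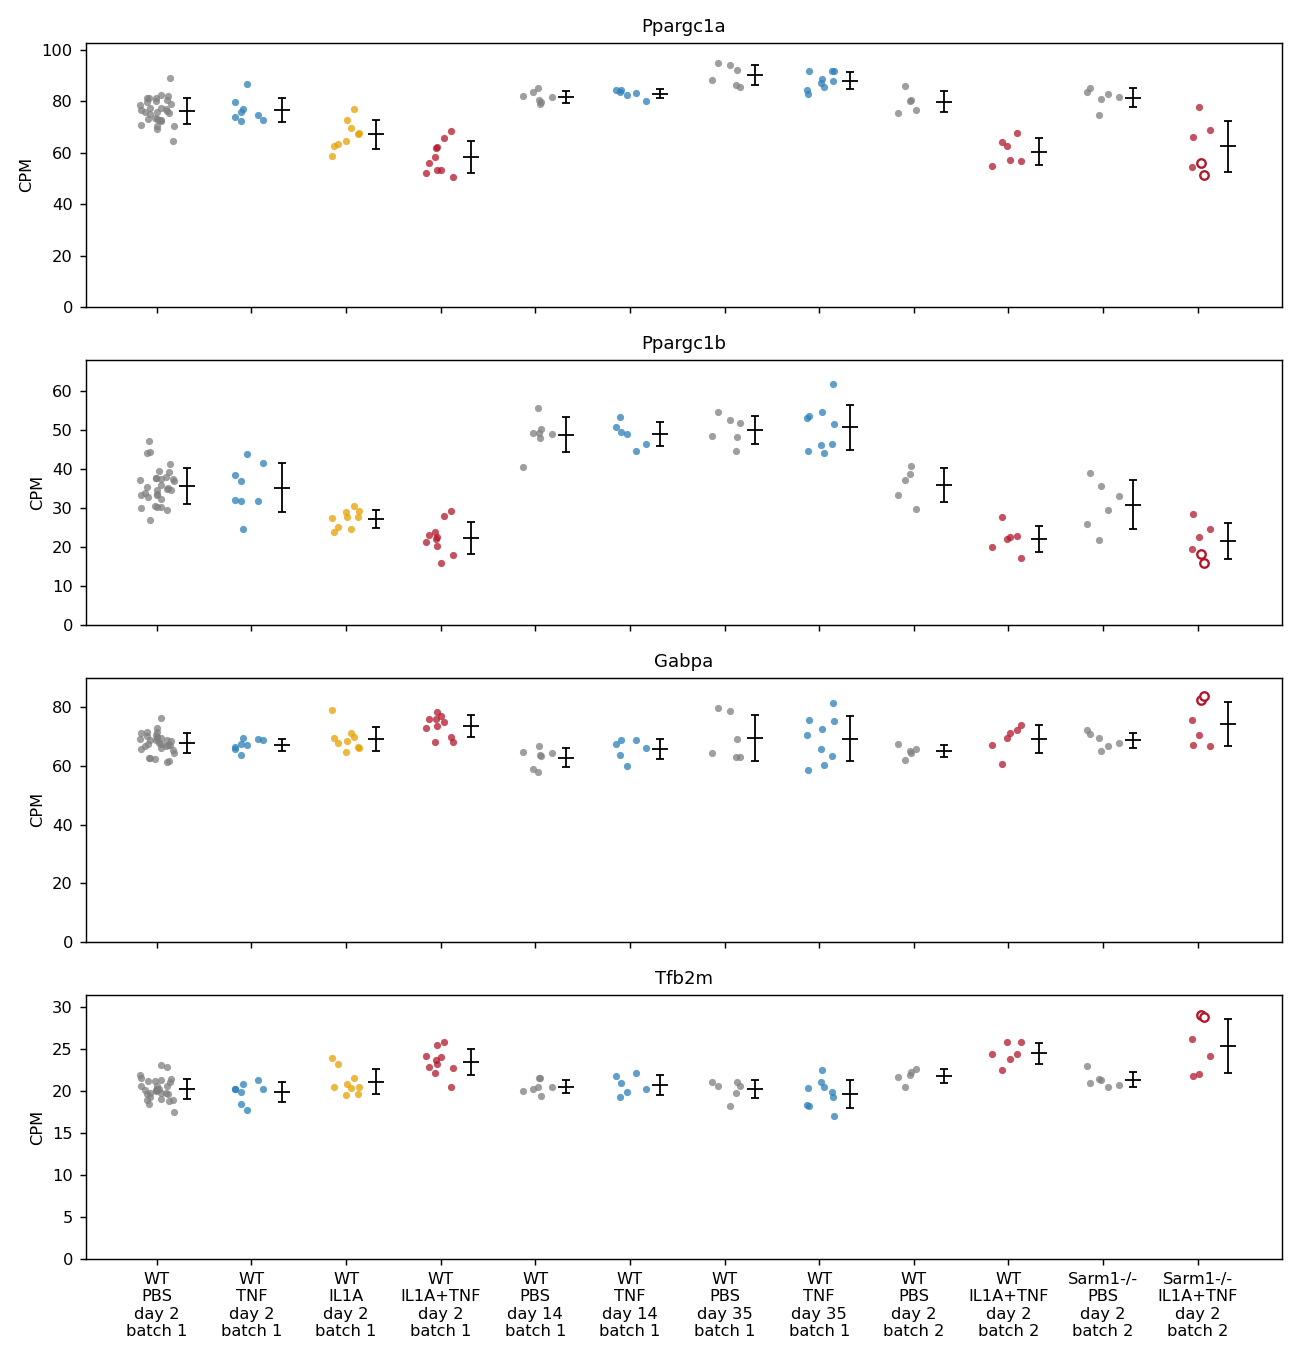
Ppargc1a, Ppargc1b, Gabpa and Tfb2m in each retina in CPM, by genotype, treatment, day and batch, with mean and SD beside the points and the retinas of Sarm1-/- mice 61924 and 61926 as open circles. Ppargc1b is lowest after IL1A+TNF (medians of 20.84 to 22.24 CPM) and highest at days 14 and 35 (medians of 49.04 to 51.42 CPM).

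Among the DNA-binding factors other than Nrf1, Gabpa rose and Esrra did not pass the test in batch 1. Gabpa (chromosome 16, 84834925 to 84863779, plus strand) was 61.27, 67.7 and 76.42 CPM at its lowest, median and highest after PBS and 68.25, 74.35 and 78.48 CPM after IL1A+TNF in WT retinas of batch 1. All 10 retinas lay above the PBS mean (log2 fold change 0.11 ± 0.03, limma FDR = 0.000265), with broad overlap of the groups. With mouse as a fixed replicate block the rise was 0.08 and not called (limma FDR = 0.111). Gabpa shares 397 exon bases with Atp5j on the other strand (6.98% of its exon length), and counting by strand was not stated. In WT batch 2, its PBS retinas had 62.09, 64.4, 65.22, 65.89 and 67.52 CPM and its IL1A+TNF retinas 60.61 to 73.94 CPM (median 70.34), overlapping.

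Gabpa in Sarm1-/- retinas rose from 65.08, 68.61 and 72.33 CPM (lowest, median and highest after PBS) to 66.89, 73.08 and 83.7 CPM (0.13 ± 0.05, limma FDR = 0.0168). The highest values, 82.46 and 83.7 CPM, were those of mice 61924 and 61926. Without them the log2 fold change was 0.04 ± 0.05 (limma FDR = 0.686), so the call rested on these retinas. In WT batch 2 alone the value was 0.08 and not called (limma FDR = 0.331).

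Esrra (chromosome 19, 6910977 to 6921813, minus strand) encodes ERRα, an orphan nuclear receptor that PGC-1 coactivates. Its promoter holds the TGCGCA motif 31 bases before the start (in capitals, chr19:6921759-6922058, minus strand, RefSeq GRCm38.p6), and is shown as that of the nuclear receptor among the members.
Esrra: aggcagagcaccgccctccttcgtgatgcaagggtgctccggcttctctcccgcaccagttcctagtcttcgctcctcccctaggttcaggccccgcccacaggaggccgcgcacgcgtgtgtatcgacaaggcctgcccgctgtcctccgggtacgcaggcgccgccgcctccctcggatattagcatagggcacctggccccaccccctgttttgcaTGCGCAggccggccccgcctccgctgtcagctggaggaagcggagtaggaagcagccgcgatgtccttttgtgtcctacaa

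Esrra shares 73 exon bases with Trmt112 on the other strand (1.66% of its exon length) and 91 with Mir6990 on its own (2.07%). It was 15.76, 21.83 and 26.32 CPM at its lowest, median and highest in WT PBS retinas of batch 1 and 18.44, 20.2 and 22.89 CPM after IL1A+TNF, all inside the PBS range (log2 fold change -0.09 ± 0.04, limma FDR = 0.0575). With both batches in the fit it fell by 0.11 on the log2 scale (SE 0.04, limma FDR = 0.0171), a call that was lost with no filter on low counts (-0.09, limma FDR = 0.0997) and with batch 2 alone (-0.16, limma FDR = 0.255). In WT batch 2 the PBS retinas had 19.11, 20.6, 21.23, 22.09 and 22.58 CPM and the IL1A+TNF retinas 15.68 to 20.03 CPM (median 19.06), all below the PBS mean. In Sarm1-/- mice the PBS retinas lay between 18.55 and 20.73 CPM and the IL1A+TNF retinas between 13.88 and 22.27 CPM, the lowest pair being those of mice 61926 (13.88) and 61924 (13.97). The log2 fold change was -0.14 ± 0.07 with them (limma FDR = 0.127) and -0.0016 without (limma FDR = 0.994). It was called when mouse 61561 (-0.19, limma FDR = 0.0469) or mouse 61564 (-0.24, limma FDR = 0.00862) was left out.

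The factors that act on mitochondrial DNA and ribosomal RNA moved upward where they moved. In WT IL1A+TNF retinas of batch 1, summed rod markers averaged 25070 CPM, against 42010 CPM after PBS. Summed microglia markers averaged 121.2 against 59.94 CPM, and neutrophil markers 238.6 against 22.57 CPM. The part of these cells in the rises of these factors and of Gabpa was not tested. The promoters of Tfam and Tfb2m are shown because they hold the motifs of GABP and NRF1. In Tfam (chr10:71237995-71238294, minus strand, RefSeq GRCm38.p6) the ETS site ACCGGAAG in capitals begins 48 bases before the start. In Tfb2m (chr1:179546227-179546526, minus strand) the NRF1 core lies on the other strand 12 bases after the start, in capitals with the TGCGCA motif 181 bases before it.
Tfam: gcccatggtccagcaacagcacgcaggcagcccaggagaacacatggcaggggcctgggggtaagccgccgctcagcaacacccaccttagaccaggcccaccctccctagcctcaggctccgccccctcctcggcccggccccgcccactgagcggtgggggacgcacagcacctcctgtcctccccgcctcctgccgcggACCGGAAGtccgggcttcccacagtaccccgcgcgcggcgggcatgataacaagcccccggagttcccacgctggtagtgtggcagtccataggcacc
Tfb2m: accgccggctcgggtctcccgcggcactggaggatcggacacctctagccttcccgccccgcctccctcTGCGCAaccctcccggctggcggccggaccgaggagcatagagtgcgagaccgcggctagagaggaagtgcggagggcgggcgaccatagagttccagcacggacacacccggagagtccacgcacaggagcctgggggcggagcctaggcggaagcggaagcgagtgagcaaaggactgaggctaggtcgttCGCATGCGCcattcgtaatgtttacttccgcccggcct

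Over 32851 promoters of the same length, the NRF1 core occurred in 1.75%, TGCGCA in 7.76%, ACCGGAAG in 2.30%, AAGGTCA in 4.72% and TGACGTCA in 1.79%. RefSeq promoters were found for 7 of the 8 members, all but Ppargc1b. In those of Nrf1, Ppargc1a, Gabpa and Tfb1m no motif was present in this window. The motifs are letters in a window and were not measured for binding here.

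Tfb2m (chromosome 1, 179528055 to 179546267, minus strand) had the largest fitted rise of the 3 in WT retinas of batch 1. In WT PBS retinas of batch 1 it was 17.48, 20.19 and 23.14 CPM at its lowest, median and highest, and after IL1A+TNF 20.46, 23.47 and 25.82 CPM, with 10 of 10 above the PBS mean (log2 fold change 0.21 ± 0.03, limma FDR = 3.58e-07). After IL1A alone the difference was 0.06 ± 0.04 (limma FDR = 0.223), and IL1A+TNF exceeded IL1A by 0.15 ± 0.04 (limma FDR = 0.0202, and 0.8 with mouse as a fixed replicate block). In WT batch 2 the PBS retinas had 20.46, 21.69, 21.99, 22.29 and 22.7 CPM and the IL1A+TNF retinas 22.56 to 25.84 CPM (median 24.42). These groups overlapped only by the highest PBS and the lowest IL1A+TNF retina, and with batch 2 alone the rise of 0.16 was not called (limma FDR = 0.1).

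Tfb2m in Sarm1-/- retinas was 20.5, 21.19 and 23.06 CPM at its lowest, median and highest after PBS and 21.76, 25.17 and 29.06 CPM after IL1A+TNF (0.25 ± 0.05, limma FDR = 1e-04). All 6 mice had more in the IL1A+TNF eye. The highest values were those of mice 61924 (29.06) and 61926 (28.79), and without them the log2 fold change was 0.14 ± 0.05 (limma FDR = 0.077).

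Tfb1m (chromosome 17, 3519256 to 3557781, minus strand), the lowest of the 8 genes per kilobase, rose by 0.17 ± 0.05 on the log2 scale in WT retinas of batch 1 (limma FDR = 0.00911). It shares 142 exon bases with Tiam2 on the other strand (3.94% of its exon length). The PBS retinas had 4.25, 5.42 and 6.43 CPM at the lowest, median and highest, and the IL1A+TNF retinas 5.13, 6.23 and 6.87 CPM, with 9 of 10 above the PBS mean. With mouse as a fixed replicate block the value was 0.17 and not called (limma FDR = 0.0778). In Sarm1-/- retinas Tfb1m went from 5.01 to 6.05 CPM after PBS to 5.30 to 7.73 CPM after IL1A+TNF (0.25 ± 0.08, limma FDR = 0.0084, and 0.17 ± 0.09 with limma FDR = 0.199 without the 2 retinas).

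Tfam (chromosome 10, 71225464 to 71238280, minus strand) was 22.91, 27.56 and 30.03 CPM at its lowest, median and highest in WT PBS retinas of batch 1 and 26.04, 29 and 30.32 CPM after IL1A+TNF, a difference that did not pass the test (0.07 ± 0.04, limma FDR = 0.0877). Over both batches it was 0.08 ± 0.03 (limma FDR = 0.0318, and 0.165 with mouse as a fixed replicate block). That call was also lost with batch 2 alone (limma FDR = 0.387) and without mouse 61927 (limma FDR = 0.097) or 62224 (limma FDR = 0.0569). In Sarm1-/- mice 3 of 6 IL1A+TNF retinas lay above the PBS mean of 26.82 CPM, at 30.74, 30.85 and 34.05 CPM, and these were the 3 lowest in RGC markers. The same 3 retinas had the 3 highest levels of Gabpa, Tfb1m and Tfb2m in that group. The log2 fold change of Tfam in Sarm1-/- retinas was 0.13 ± 0.05 (limma FDR = 0.0393, and 0.0662 with the fixed block), against 0.04 ± 0.06 without the 2 retinas (limma FDR = 0.704). The call was also lost with no filter (limma FDR = 0.148) and with batch 2 alone (limma FDR = 0.0737). Leaving out any of mice 61720, 61721, 61722, 61765, 61924, 61926, 61927 or 62224 lost it too.

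The counts of called members are read against the share of all genes called in the same comparison. After IL1A+TNF in WT retinas of batch 1, 5 of the 7 members other than Nrf1 were called (Gabpa, Tfb1m and Tfb2m higher, Ppargc1a and Ppargc1b lower), against 50.4% of all 19548 genes tested. With mouse as a fixed replicate block 3 were called, Ppargc1a, Ppargc1b and Tfb2m, against 35.8% of all genes. After IL1A alone 2 of 8 were called (21.4% of all genes), and 1, Ppargc1b, with the fixed block (10.8%). Between IL1A+TNF and IL1A 3 of 7 were called (10.1% of all genes). With the fixed block limma called 0 of 7 and 0% of all genes there, with 2105 genes at an unadjusted p under 0.05, of the 7 members Ppargc1a. With the 2 batches fitted together 7 of 7 were called in WT retinas (54.8% of all genes), but 2, both coactivators, with batch 2 alone (20.9%).

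TNF alone moved no member detectably. At day 2, limma, edgeR and DESeq2 each called 0 of the 8 members, and none had an unadjusted p under 0.05 by any of these tools, against 0.655% of all genes called by limma. At day 14 limma called 0 of 8 members and 0% of the 18023 genes tested, where 838 genes had an unadjusted p under 0.05, none of them a member. At day 35 it called 0 of 8 and 0% of 17821 genes, where 871 had an unadjusted p under 0.05, again without a member. edgeR and DESeq2 also called 0 genes at both days. The member with the largest log2 difference was Tfb1m at day 2 (-0.06 ± 0.06), Gabpa at day 14 (0.07 ± 0.04) and Esrra at day 35 (-0.09 ± 0.05), the last with 9 of 9 TNF retinas below the PBS mean.

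**Figure D5:**
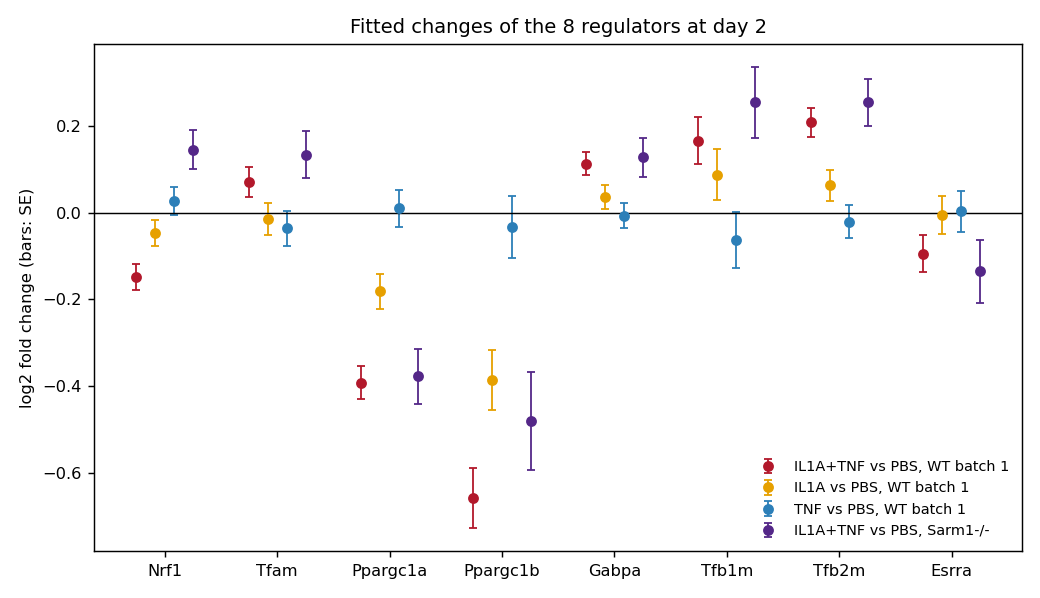
Fitted log2 fold changes against PBS at day 2 with SE for the 8 genes in 4 comparisons, WT retinas of batch 1 after IL1A+TNF, IL1A or TNF and Sarm1-/- retinas after IL1A+TNF. Ppargc1a and Ppargc1b lie below 0 after IL1A and IL1A+TNF in both genotypes, TNF values lie around 0, and Nrf1 is at -0.15 in WT and 0.14 in Sarm1-/- retinas after IL1A+TNF.

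In Sarm1-/- retinas 6 of the 7 members other than Nrf1 were called after IL1A+TNF, against 43.5% of all genes. Leaving out mouse 61924 left 3 (28% of all genes) and so did leaving out mouse 61926 (30.1%). Leaving out the IL1A+TNF retinas of both mice left 2, Ppargc1a and Ppargc1b, against 12.6% of all genes. Between genotypes in PBS retinas limma called 0 of 7 members and 0.0397% of all genes, and Gabpa and Ppargc1b had an unadjusted p under 0.05. In IL1A+TNF retinas it called 0 of 7 (14.8% of all genes), with Gabpa at an unadjusted p under 0.05, and edgeR and DESeq2 also called none. Without the 2 retinas 0 of 7 were called there, against 0.889% of all genes. Of the difference between genotypes in the response to IL1A+TNF, 0 of 7 members and 8.75% of all genes were called by limma, and none of the 7 had an unadjusted p under 0.05. edgeR and DESeq2 called none of the 7 either. Without the 2 retinas limma called 0% of all genes for that difference, with 2511 genes at an unadjusted p under 0.05, of the 7 members Ppargc1b. With all retinas the difference in response was largest in size for Nrf1, as its choice implied, and without the 2 retinas it was larger for Ppargc1b (0.29 ± 0.14, limma FDR = 0.397) than for Nrf1.

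The gene lists that follow were drawn up with earlier results of these data known. The partners of these regulators split in both directions. Of 17 genes for DNA-binding partners, coactivators and corepressors of PGC-1, 6 rose and 6 fell after IL1A+TNF in WT retinas of batch 1 (median log2 fold change -0.03, against -0.02 over all genes, of which 50.4% were called in this comparison). Pprc1, which encodes the PGC-1-related coactivator PRC, rose by 0.57 ± 0.08 on the log2 scale, from 33.4 ± 4.80 to 50.9 ± 11.2 CPM (limma FDR = 2.72e-08). Pparg, a nuclear receptor, rose by 0.97 ± 0.31 from a very low level (0.16 ± 0.13 CPM, limma FDR = 0.00661), whereas in batch 2 its WT means were 0.34 CPM after PBS and 0.32 CPM after IL1A+TNF. Esrrb, a relative of Esrra that rods express, fell from 432 ± 50.6 to 237 ± 53.2 CPM (-0.88 ± 0.08, limma FDR = 1.08e-14). Ppara, a receptor for fatty acid oxidation genes, fell from 15.9 ± 2.37 to 9.54 ± 2.29 CPM (-0.74 ± 0.08, limma FDR = 2.99e-11). In the same retinas 5 of 6 rod markers fell, with a summed level of 20690 to 38380 CPM against 32650 to 51400 CPM after PBS, and their part in the fall of Esrrb was not tested.

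Of 13 genes that act on PGC-1 from upstream, 5 rose and 3 fell in that comparison (median -0.01), against the same share of all genes. Creb1, a transcription factor of the Ppargc1a promoter, rose from 169 ± 13.4 to 216 ± 29.0 CPM (0.33 ± 0.05, limma FDR = 3.68e-08), and Kat2a, the acetyltransferase GCN5, by 0.21 ± 0.03 (limma FDR = 7.56e-07). Mef2c, a transcription factor that PGC-1α coactivates, fell from 175 ± 20.5 to 97.7 ± 18.2 CPM (-0.84 ± 0.07, limma FDR = 3.27e-16), and the calcium-dependent kinase gene Camk4 fell by 0.46 ± 0.07 (limma FDR = 8.94e-08). These 4 genes were measured in whole retina, where neurons and immune cells differ in them, and neutrophil and monocyte markers were higher in the same retinas (106 to 638.7 and 263.6 to 700.2 CPM, against 2.18 to 113.7 and 76.26 to 188.5 CPM after PBS). The part of these cells in the values was not tested.

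Of 18 genes that copy, transcribe or process mitochondrial DNA and RNA, 4 rose and 4 fell (median 0.03), where 50.4% of all genes were called. Pnpt1, a mitochondrial RNA exonuclease, rose from 43.2 ± 4.42 to 80.6 ± 23.3 CPM (0.83 ± 0.09, limma FDR = 7.31e-12), and Polrmt, the mitochondrial RNA polymerase, by 0.16 ± 0.04 (limma FDR = 0.000489). Polg2, the accessory subunit of the mitochondrial DNA polymerase, fell from 37.1 ± 4.23 to 25.3 ± 4.73 CPM (-0.56 ± 0.06, limma FDR = 4.43e-11), and the topoisomerase gene Top1mt fell by 0.37 ± 0.06 (limma FDR = 5.04e-07). The list of 15 nuclear genes taught as NRF1 targets, mostly subunits of cytochrome c oxidase, had 2 members called, both lower, where 50.4% of all genes were called. These were Tomm20, an import receptor of the outer membrane (-0.17 ± 0.04, limma FDR = 0.000502), and Cox6c (-0.16 ± 0.05, limma FDR = 0.00558), and the median of the list was -0.02, like that of all genes.

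Transcripts of the mitochondrial genome itself were lower. Of its 13 protein-coding genes 11 were called after IL1A+TNF in WT retinas of batch 1, all lower, with a median log2 fold change of -0.23, where 50.4% of all genes were called. In the same retinas the summed rod markers averaged 25070 CPM against 42010 CPM after PBS, the cone markers 312.7 against 847.3 CPM, the neutrophil markers 238.6 against 22.57 CPM and the monocyte markers 392.5 against 124.4 CPM, and their part in the fall was not tested. The largest falls were those of mt-Co3 (-0.37 ± 0.09, limma FDR = 0.000395) and mt-Co2 (-0.31 ± 0.09, limma FDR = 0.00309), subunits of cytochrome c oxidase. Both were a small part of the total, with means of 68.88 and 67.34 CPM after PBS against 29640 CPM for the 13 genes summed. The 13 genes together took 2.94% ± 0.27 of all counts after PBS (SD, n = 31) and 2.65% ± 0.29 after IL1A+TNF (n = 10). In Sarm1-/- retinas 10 of 13 were called, all lower (median -0.37), and the share went from 3.11% ± 0.14 to 2.54% ± 0.61 (n = 6 each). Without the 2 retinas none of the 13 was called (median -0.19). Libraries were made from polyA RNA, and mitochondrial transcripts are captured only by their short tails.

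In Sarm1-/- retinas with all 6 mice in, the nuclear lists had genes called in both directions, except the NRF1 targets, called only lower. The partners had 7 genes higher and 5 lower, the upstream genes 4 and 4, the mitochondrial DNA genes 5 and 3, and the NRF1 targets 0 and 3, where 43.5% of all genes were called. Without the 2 retinas these counts were 0 and 3, 1 and 2, 1 and 1, and 0 and 0, where 12.6% of all genes were called. For the difference in response between genotypes, limma called none of these genes or of the mitochondrial genome. In IL1A+TNF retinas, 6 of the 63 nuclear list genes were called between genotypes, against 14.8% of all genes, and they are named after their values were seen. Mterf3 (0.17 ± 0.04, limma FDR = 0.00513), Twnk (0.17 ± 0.06, limma FDR = 0.0318), Lonp1 (0.16 ± 0.06, limma FDR = 0.0464), Gabpb1, the partner subunit of GABPA (0.15 ± 0.04, limma FDR = 0.0133), and Sirt1 (0.17 ± 0.04, limma FDR = 0.00365) were higher in Sarm1-/- retinas. Thra was lower (-0.31 ± 0.09, limma FDR = 0.0156). None of the 6 was called without the 2 retinas.

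The genes with which Nrf1 and Gabpa are easily confused were measured too. Nfe2l2, the regulator of antioxidant genes, rose after IL1A+TNF in WT retinas from 36.2 ± 3.20 to 46.2 ± 4.36 CPM (0.35 ± 0.05, limma FDR = 4.02e-09), after IL1A alone by 0.26 ± 0.05 (limma FDR = 4.23e-05), and in Sarm1-/- retinas by 0.42 ± 0.09 (limma FDR = 9.36e-05), a call that was lost without the 2 retinas. Nfe2l1 was not called in any of these (-0.05 ± 0.03, -0.05 ± 0.03 and -0.09 ± 0.05). Neither differed between genotypes in its response (0.04 ± 0.10 for Nfe2l2 and -0.03 ± 0.06 for Nfe2l1).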

How the data were processed

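PolyA RNA of 109 retinas was sequenced as 150 bp paired-end reads. The authors aligned reads to mm10 with STAR 2.7.9a and counted them per Ensembl gene with featureCounts of Subread 2.0.1, and the deposited values are raw counts, not normalized. The annotation release and the strand setting of the counting are not given in the sources used here. The members and gene lists were chosen with earlier results of these data known.

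Counts were analysed in R 4.3.3 with limma 3.58.1 (voom, TMM factors from edgeR 4.0.16), with sex as a covariate and mouse as a block through duplicateCorrelation (statmod 1.5.0, 2 rounds). Day 2, day 14 and day 35 of batch 1 were fitted separately. The Sarm1 comparisons were fitted over all 81 retinas of day 2 with batch as a covariate. The F test across days in PBS retinas used no block, although the 7 PBS retinas of day 14 came from 6 mice. Genes passed filterByExpr (minimum count 10, minimum total 15), and the false discovery rate was adjusted over all genes tested, with calls under 0.05. CPM values use TMM-scaled totals, and log2 CPM a prior count of 2. Before use, limma was tried on simulated counts without correlation between eyes and without the mouse block, so the blocked model was not tried. Same-numbered retinas are both eyes of a mouse (45 mice), which pairs them by the labels. The deviations of these eyes from their group means had a median correlation of 0.08 (-0.27 to 0.34), and 19 of 45 were above 0.1. No 2 retinas of a group agreed within sampling noise (smallest chi-square per gene 4.55 over 716 pairs).

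All 8 members were named in each comparison. From each other list the called genes with the 2 largest log2 fold changes in each direction after IL1A+TNF (WT, batch 1) and in the genotype difference were named, and the 5 genes most like Nrf1 among those with a mean of at least 1 CPM. Alternatives were no filter, DESeq2 size factors, edgeR's quasi-likelihood test, DESeq2 1.42.0, and leaving out the sex term or the block. Others were fixed effects for mice, all days of batch 1 in a single model, and the second batch by itself. The 11 mice of batch 2 that were Sarm1-/- or had a PBS retina were also dropped in turn. Gene positions came from GENCODE M21 and promoters from RefSeq, both on GRCm38.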

Additional observations from a re-analysis of the deposited data

Results flagged for a closer look

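A retina far from the others of its group was looked for in the 8 genes, over 88 groups of 5 to 10 retinas with Dixon's test, where chance flags about 1 in 20 groups. In the WT retinas of day 2 after IL1A (n = 9), Gabpa was 78.97 CPM in the left eye of mouse 60637, and the next highest retina had 71.26 CPM. In the WT retinas of day 35 after TNF (n = 9), Esrra was 18.3 CPM in the left eye of mouse 59892, and the next lowest retina had 20.34 CPM.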

How the results depend on the processing

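Of the log2 fold changes of single members under the alternatives, 1080 were labelled the same, 37 lost a call and 5 gained one. Another 45 changed sign and 1 moved by more than the spread between retinas. The same meant an unchanged direction and side of the threshold. For Nrf1 in the comparisons that chose it, it meant only a move smaller than that spread, whatever the FDR. With mouse as a fixed replicate block, the members called went from 5 to 3 after IL1A+TNF in WT batch 1, from 2 to 1 after IL1A and from 3 to 0 between IL1A+TNF and IL1A. With that block the TNF values of day 2 changed sign for Nrf1 (-0.0040), Ppargc1a (-0.0153), Gabpa (0.0144), Tfb2m (0.0213) and Esrra (-0.0699), as did the genotype difference in response of Ppargc1a (-0.0023). The joint fit of batch 1 gave -0.0030 for Esrra after TNF at day 2. At day 14 Esrra was 0.0008 with no filter, 0.0059 with no replicate block, 0.0086 by edgeR and 0.0072 by DESeq2. With no filter, Tfb2m was 0.0210 between genotypes in PBS, and the difference in response was -0.0299 for Ppargc1a and -0.0234 for Gabpa. With batch 2 alone 2 members were called in WT retinas instead of 7, and the difference in response of Esrra was 0.0240. Leaving out 1 mouse at a time gave 3 to 7 members called in Sarm1-/- retinas (3 without mouse 61924 or 61926) and 0 to 1 between genotypes in IL1A+TNF (Gabpa, without 61564 or 62221). It moved the genotype difference in IL1A+TNF of Ppargc1a from -0.0298 to 0.0789, of Tfb1m from -0.0136 to 0.0759, of Tfb2m from -0.0129 to 0.0635 and of Ppargc1b from -0.1281 to 0.0065. It moved the difference in response of Ppargc1a from -0.0893 to 0.0542, of Gabpa from -0.0366 to 0.0535, of Tfb2m from -0.0064 to 0.0891, of Esrra from -0.1181 to 0.0502 and of Tfam from -0.0001 to 0.0853. Without both retinas lowest in RGC markers, chosen after seeing the data, 2 members were called in Sarm1-/- retinas and Nrf1 was 0.0687. The genotype difference in IL1A+TNF was then 0.0656 for Ppargc1b, -0.0435 for Tfb1m, -0.0667 for Tfb2m and 0.0451 for Esrra, and the difference in response was -0.0267 for Tfam, -0.0646 for Gabpa, -0.0513 for Tfb2m and 0.1224 for Esrra. The values that changed sign were all uncalled, and the cause was not tested.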
